A study of Mus musculus with 11 samples.

Results

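The 41 genes described here are members of the WNT signalling pathway, chosen by gene symbol from the 54347 rows of a bulk RNA sequencing count table of mouse bone marrow cells. They comprise ligands and the proteins that secrete them, frizzled receptors and co-receptors, ubiquitin ligases that remove receptors, dishevelled proteins, the beta-catenin destruction complex, TCF/LEF transcription factors, TLE corepressors and genes of the planar cell polarity branch. All 41 symbols were found in the table, and 33 of them passed a filter on low counts and were among the 14915 genes tested.

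The cells came from 4 untreated female wild-type C57BL/6NTac mice and all groups share that background. After depletion of lineage-positive cells, long-term haematopoietic stem cells (LT-HSCs) were sorted as CD150+CD48- cells within the Lin-Sca-1+c-Kit+ compartment and divided by surface endomucin (EMCN), a sialoglycoprotein. Granulocyte-monocyte progenitors (GMPs) were sorted as a more differentiated population. EMCN+ cells gave 4 libraries, EMCN- cells 3 and GMPs 4, because the submitters removed the EMCN- library of mouse 3 for poor quality, and each was made from RNA of a small sorted population (3000 to 5000 cells for the LT-HSC fractions). All groups are cells purified by surface markers and not tested for function in these data.

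WNT ligands bind frizzled receptors together with the co-receptors LRP5 and LRP6, which recruits dishevelled and stops the complex of Axin, APC, GSK3 and casein kinase 1 from marking beta-catenin for destruction. Beta-catenin then enters the nucleus and displaces TLE corepressors from TCF/LEF factors, while a separate branch through receptors such as RYK and the proteins VANGL, PRICKLE and DAAM1 acts on the cytoskeleton and cell polarity without beta-catenin. In bone marrow, WNT signals have been studied as regulators of stem cell self-renewal and of lymphoid and myeloid differentiation.

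Total estimated counts per library were 3.63 to 11.1 M. A count of 0 in a library allows up to 3 counts, which corresponded to 0.209 to 0.705 CPM (counts divided by the TMM-scaled library size in M). Emcn, the gene behind the sort of the LT-HSCs, was at 25.0 to 28.1 CPM in EMCN+, 12.7 to 16.2 CPM in EMCN- and 0 to 1.37 CPM in GMP libraries. Summed over 12 genes that mark LT-HSCs, levels were 1881 to 2229 CPM in EMCN+, 1599 to 1849 CPM in EMCN- and 167 to 238 CPM in GMP libraries, and summed over 10 genes that mark GMPs they were 50.0 to 61.2 CPM in LT-HSCs and 15528 to 18850 CPM in GMPs. Endothelial marker genes, several of which stem cells also express, summed to 204 to 252 CPM in EMCN+, 177 to 199.7 CPM in EMCN- and 69.9 to 90.4 CPM in GMP libraries, with Cdh5, Cldn5 and Esam at 0 in all GMP libraries. T cell marker genes summed to 2.74 to 4.18 CPM in EMCN+, 4.44 to 7.10 CPM in EMCN- and 1.96 to 5.21 CPM in GMP libraries, with Cd3e and Cd2 at 0 in all 11 and Cd4 at means of 2.69, 4.44 and 0.96 CPM. B cell marker genes summed to 6.58 to 14.2 CPM in LT-HSCs and 20.9 to 31.9 CPM in GMPs. Erythroid marker genes summed to 16.4 to 20.6 CPM in EMCN+, 10.7 to 12.6 CPM in EMCN- and 16.4 to 83.4 CPM in GMP libraries. Megakaryocyte marker genes summed to 29.3 to 41.8 CPM in EMCN+, 71.0 to 114 CPM in EMCN- and 10.9 to 22.9 CPM in GMP libraries. The part of these other cell types in the WNT gene results was not tested. In bulk RNA, fewer cells of a type and less RNA per cell cannot be told apart.

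Among the 33 tested genes, 23 were higher in LT-HSCs than in GMPs and 3 were lower at an adjusted p under 0.05 (edgeR's quasi-likelihood test, Benjamini-Hochberg adjustment over all tested genes). The 23 are 69.7% of the members tested, beside 32.5% of all tested genes called higher, and the 3 are 9.09%, beside 29.9% called lower. Of all called genes 52.1% were higher, and 82.6% with total-count scaling. The members' median log2 difference was 0.68, and the median over all tested genes was 0.03. Passing the filter required enough counts in any 3 libraries, the size of the smallest group, so high counts in 1 group sufficed. Hence 7 members (Fzd3, Fzd4, Fzd8, Ryk, Tcf7l1, Tle2 and Vangl1) passed with under 10 counts in every GMP library. Another 1 (Rnf43) passed with under 10 counts in every LT-HSC library. The members called by over 2 on the log2 scale, 9 higher (27.3%, beside 11.6% of all genes) and 2 lower (6.06%, beside 5.97%), were Fzd3, Fzd4, Fzd6, Fzd8, Ryk, Tcf7l1, Tcf7l2, Tle2 and Vangl1 on the higher side and Daam1 and Rnf43 on the lower side. The 7 members and Rnf43 that passed the filter through 1 group are all among these, so a large difference was favoured for them. Scaling by total counts raised the median over all genes by 0.781 and turned Tle3 to higher.

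The promoters of 3 members that were high in LT-HSCs, Ryk, Tle2 and Tcf7l2, and of the 2 that were high in GMPs, Rnf43 and Daam1, are shown because these genes differed by over 2 on the log2 scale between the cell types and RefSeq gives their starts. Each window is the 250 bases before a transcription start on the plus strand of GRCm38.p6, read 5′ to 3′. Capitals mark GGGCGG on either strand, the GC box that SP-family factors bind; no letters are capital in the Rnf43 window. The windows lie at chr9:102834670-102834919 for Ryk, chr10:81575037-81575286 for Tle2, chr19:55741560-55741809 for the upstream start of Tcf7l2, chr11:87662837-87663086 for the upstream start of Rnf43 and chr12:71830818-71831067 for the upstream start of Daam1. Upstream refers to the RefSeq starts. The GENCODE M21 annotation begins Rnf43 at 87662722 and Tle2 at 81574561, so their windows lie inside the annotated genes and earlier starts are not shown.
Ryk: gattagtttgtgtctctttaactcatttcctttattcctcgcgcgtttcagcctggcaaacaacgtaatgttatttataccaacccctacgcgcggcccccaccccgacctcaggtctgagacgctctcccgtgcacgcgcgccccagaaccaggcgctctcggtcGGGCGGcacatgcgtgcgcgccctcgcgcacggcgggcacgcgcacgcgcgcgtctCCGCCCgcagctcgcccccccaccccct
Tle2: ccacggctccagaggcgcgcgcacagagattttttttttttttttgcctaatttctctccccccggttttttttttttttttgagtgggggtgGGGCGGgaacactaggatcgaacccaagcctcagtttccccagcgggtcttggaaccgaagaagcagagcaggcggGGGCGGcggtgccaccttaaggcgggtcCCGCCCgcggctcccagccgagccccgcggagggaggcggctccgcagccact
Tcf7l2: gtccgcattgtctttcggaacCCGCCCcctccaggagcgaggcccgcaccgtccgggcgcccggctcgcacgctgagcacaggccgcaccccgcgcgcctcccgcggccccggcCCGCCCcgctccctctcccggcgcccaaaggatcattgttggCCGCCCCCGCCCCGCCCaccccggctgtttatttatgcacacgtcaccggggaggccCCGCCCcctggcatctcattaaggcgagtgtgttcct
Rnf43: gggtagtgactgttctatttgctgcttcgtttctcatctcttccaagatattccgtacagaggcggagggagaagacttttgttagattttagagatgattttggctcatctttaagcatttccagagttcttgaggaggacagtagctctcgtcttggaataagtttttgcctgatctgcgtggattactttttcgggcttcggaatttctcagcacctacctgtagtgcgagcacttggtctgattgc
Daam1: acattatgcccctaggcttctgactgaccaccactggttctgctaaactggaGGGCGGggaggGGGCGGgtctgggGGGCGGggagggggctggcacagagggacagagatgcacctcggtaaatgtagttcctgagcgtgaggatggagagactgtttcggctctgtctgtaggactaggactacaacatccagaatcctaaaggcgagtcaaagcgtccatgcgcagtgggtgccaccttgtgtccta
In these windows the GC box occurred 2 times for Ryk, 3 times for Tle2, 6 times for Tcf7l2, 0 times for Rnf43 and 3 times for Daam1. The downstream starts of Tcf7l2, Rnf43 and Daam1, not printed, held 0 GC boxes each, and that of Tcf7l2 held 1 match to the TCF/LEF motif below. Of 38 starts of the 27 members with a RefSeq promoter, 28 (73.7%) held the GC box, beside 32.7% of 32851 promoters of 27025 genes. The 27025 include genes outside the 14915 tested, and the share over tested genes alone was not counted. The TCF/LEF motif, CTTTGAT or CTTTGAA or CTTTGTT or CTTTGTA on either strand, occurred in 4 of 38 member windows (10.5%) and in 14.8% of all promoters. A match is a description of letters and not a binding site.

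**Figure D1:**
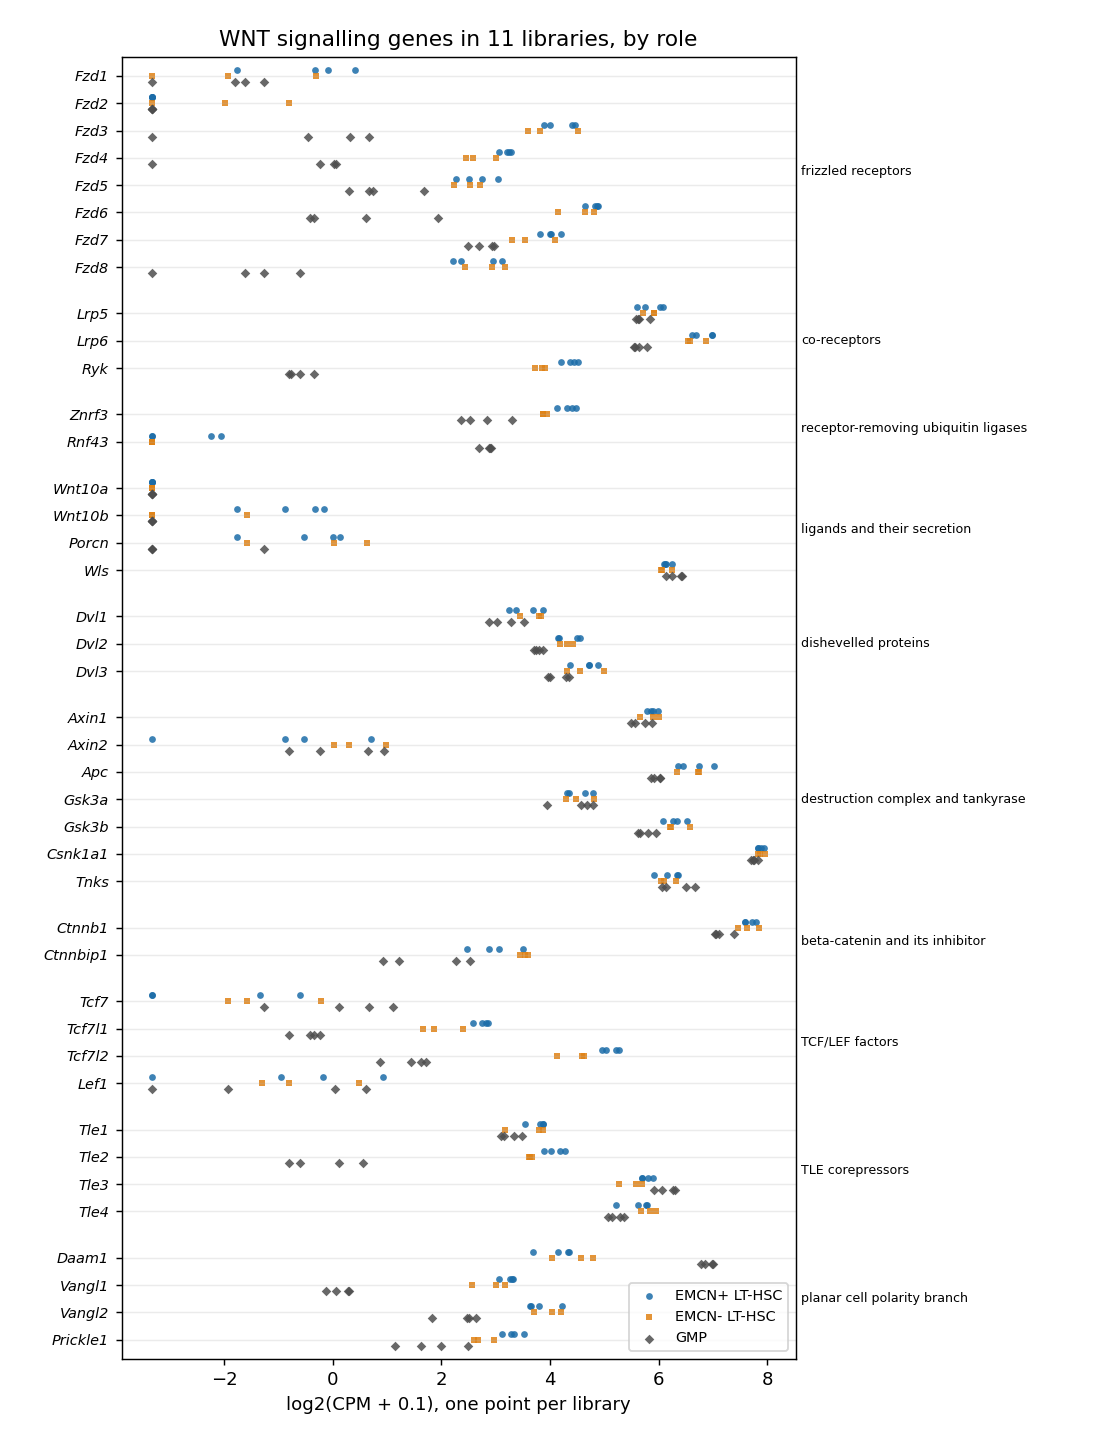
Level of each of the 41 WNT genes in 11 libraries, as log2(CPM + 0.1) on the x axis, ordered by role, with a point per library coloured by group. Ryk, Tcf7l2 and Tle2 sit at or above 12.1 CPM in all LT-HSC libraries and at or below 3.19 CPM in all GMP libraries, and Rnf43 lies between 6.37 and 7.41 CPM in GMPs and at or below 0.139 CPM in LT-HSCs.

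Frizzled receptors carry the ligand-binding domain at the cell surface. All 6 tested frizzled genes were higher in LT-HSCs, beside 32.5% of all tested genes, while Fzd1 and Fzd2 were below the filter. Fzd6 was at 24.8, 28.4, 29.4 and 28.9 CPM in the EMCN+ libraries of mice 1 to 4, 17.6, 27.9 and 24.9 CPM in the EMCN- libraries of mice 1, 2 and 4, and 1.42, 0.653, 0.683 and 3.73 CPM in the GMP libraries. No GMP library reached any LT-HSC library, and the log2 difference between LT-HSCs and GMPs was 3.98 ± 0.32 (SE; adjusted p = 1.6e-08). Fzd3 lay at 11.9 to 22.8 CPM in LT-HSCs and 0 to 1.49 CPM in GMPs (4.32 ± 0.38, SE; adjusted p = 1.6e-08), and Fzd8 at 4.57 to 8.93 CPM and 0 to 0.56 CPM (4.55 ± 0.50, SE; adjusted p = 7.8e-08). Fzd4 lay at 5.35 to 9.58 CPM in LT-HSCs and 0 to 0.947 CPM in GMPs (3.59 ± 0.42, SE; adjusted p = 2e-07). Fzd5 lay at 4.59 to 8.16 CPM and 1.14 to 3.10 CPM and differed by 1.68 ± 0.33 (SE; adjusted p = 0.00016) and Fzd7 by 1.10 ± 0.20 (SE; adjusted p = 5.6e-05). Fzd7 was the frizzled gene with the smallest difference, at 9.79 to 18.4 CPM in LT-HSCs and 5.55 to 7.74 CPM in GMPs, without overlap. In Fzd5, 17.8% of the exonic bases are shared with the gene Gm38058 on the other strand in GENCODE M21, and whether the counting used strand is not given in the sources used here. Fzd1 had 31, 4 and 4 counts summed over the EMCN+, EMCN- and GMP libraries and Fzd2 had 0, 3 and 0.

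Divided by transcript length, the frizzled genes summed to 15.0 ± 1.02 (SD, n = 4) CPM per kb in EMCN+ LT-HSCs, 12.6 ± 2.21 (SD, n = 3) in EMCN- LT-HSCs and 2.39 ± 0.398 (SD, n = 4) in GMPs. Fzd6 held 43.2% of this sum in EMCN+ LT-HSCs, 42.8% in EMCN- LT-HSCs and 14.5% in GMPs, and Fzd7 held 23.7%, 22.2% and 63.6%. The frizzled sum in the LT-HSC libraries lay between 10.1 and 15.8 CPM per kb and in the GMP libraries between 1.91 and 2.85, so the 2 cell types did not overlap, and the sums of the 2 LT-HSC fractions did. The shares count levels per kb of the longest protein-coding transcript and would move if other transcripts dominated.

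**Figure D2:**
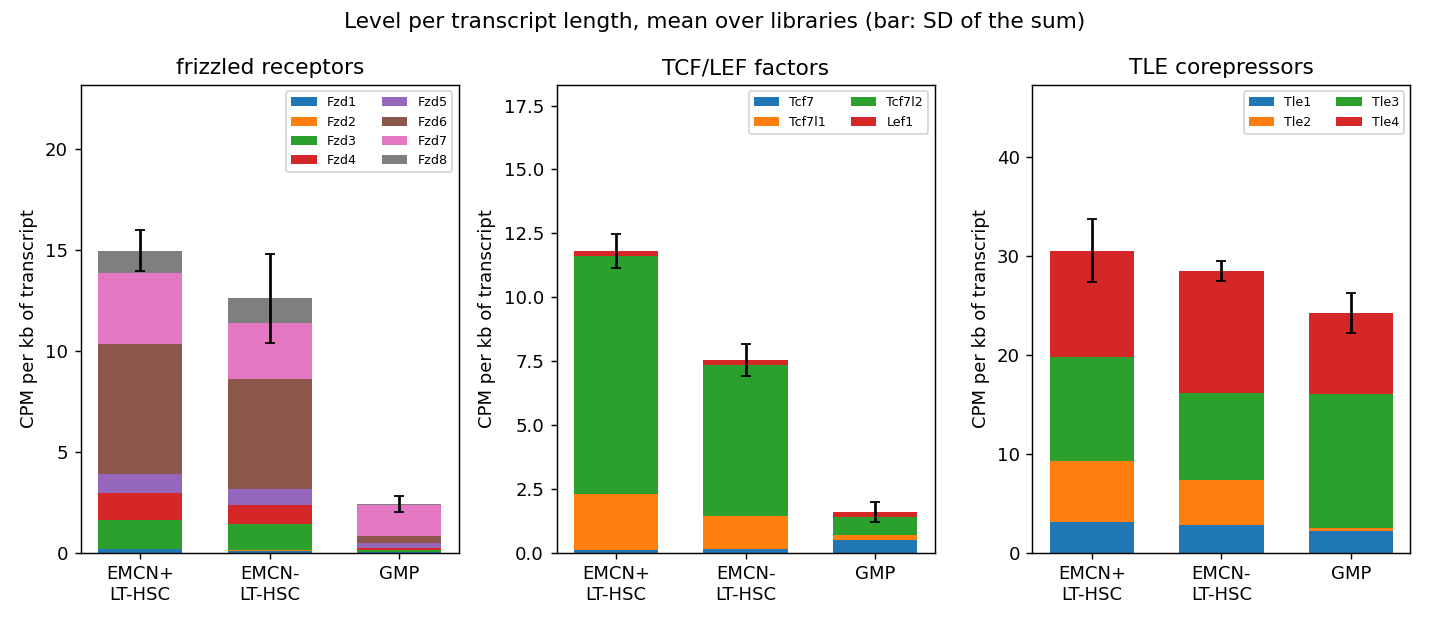
Mean level per kb of transcript of the frizzled, TCF/LEF and TLE genes in EMCN+ LT-HSCs (n = 4), EMCN- LT-HSCs (n = 3) and GMPs (n = 4), stacked by gene, with the SD of the summed level. The frizzled sum is 15.0, 12.6 and 2.39 CPM per kb and the TCF/LEF sum 11.8, 7.55 and 1.59, while the TLE sum is 30.5, 28.5 and 24.2.

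Of the co-receptors, Ryk, which encodes a catalytically inactive tyrosine kinase receptor for WNT ligands, had the largest difference of the members that were higher in LT-HSCs. Its level was 18.4, 21.5, 20.6 and 22.9 CPM in EMCN+ libraries, 13.2, 14.4 and 14.8 CPM in EMCN- libraries and 0.473, 0.49, 0.683 and 0.56 CPM in GMP libraries. The GMP libraries held 12 counts in all, and every LT-HSC library stood above them (log2 difference 4.98 ± 0.25, SE; adjusted p = 4.6e-13). Lrp6 was at 92.4 to 126 CPM in LT-HSCs and 46.5 to 54.7 CPM in GMPs (1.12 ± 0.11, SE; adjusted p = 9.2e-09). Lrp5 was at 58.0 ± 6.96 (SD, n = 7) CPM in LT-HSCs and 51.0 ± 4.34 (SD, n = 4) CPM in GMPs and did not pass the test (adjusted p = 0.14). Of the summed LRP level per kb, Lrp6 made up 51.6% in EMCN+ LT-HSCs, 49.2% in EMCN- LT-HSCs and 34.9% in GMPs.

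RNF43 and ZNRF3 are paralogous membrane ubiquitin ligases that remove frizzled receptors from the surface and are themselves known WNT targets. Their genes went in opposite directions. Rnf43, at chr11:87662722-87735539 (GRCm38), was at 7.41, 7.34, 6.37 and 7.28 CPM in GMP libraries, 0, 0.139, 0.111 and 0 CPM in EMCN+ libraries and 0 in all 3 EMCN- libraries. Its 159 counts in GMPs against 3 in LT-HSCs give a ratio of 132 (95% interval from 44.5 to 649, counting error only), and against the EMCN- libraries alone GMPs were at least 40.5-fold higher (floor of 3 counts over the group; adjusted p = 4.2e-09 for LT-HSCs against GMPs). Rnf43 shares no exonic bases with another gene in GENCODE M21. Znrf3 was at 14.5 to 22.1 CPM in LT-HSCs and 5.06 to 9.79 CPM in GMPs (1.37 ± 0.19, SE; adjusted p = 1.9e-06), with no overlap.

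**Figure D3:**
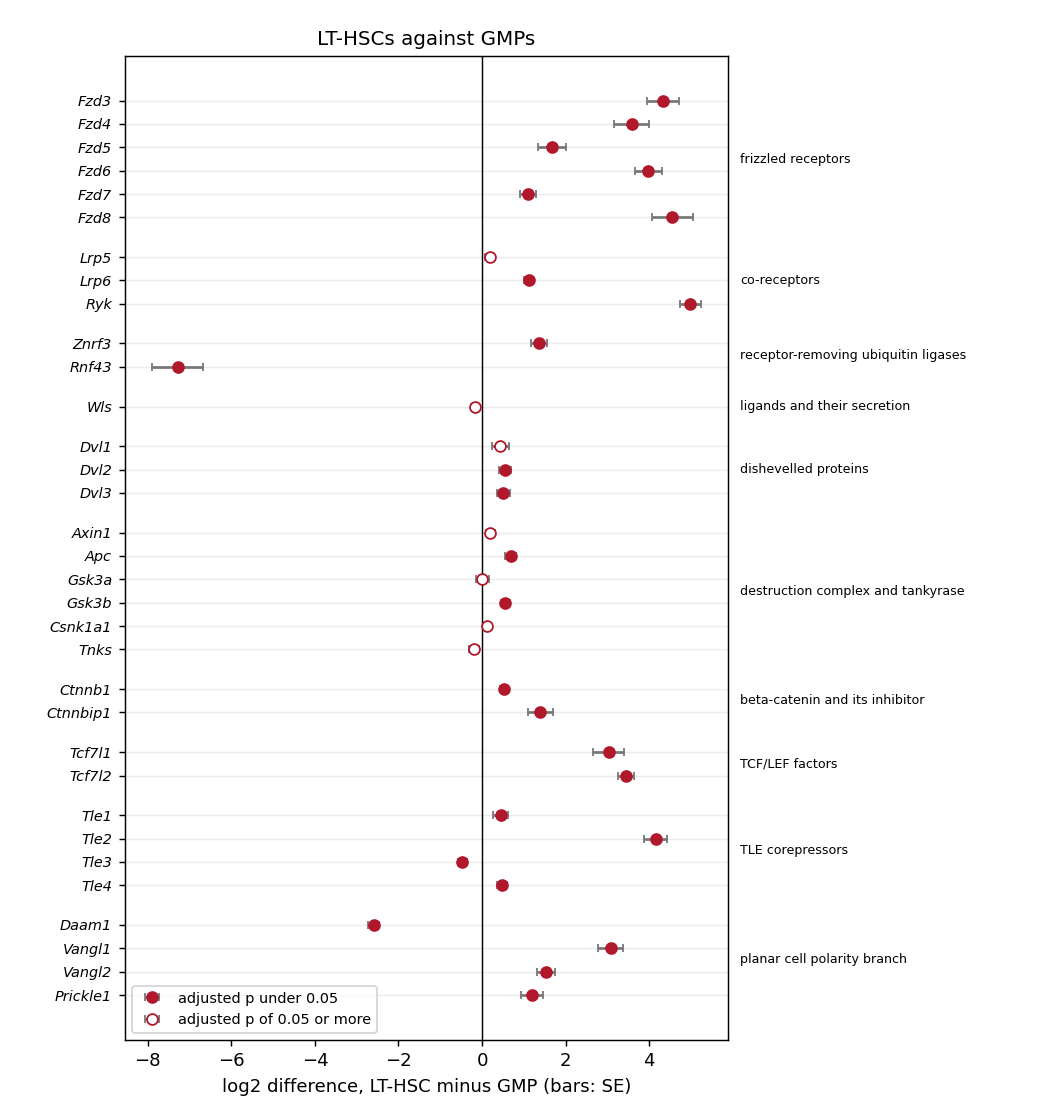
Log2 difference of the 33 tested WNT genes between the 7 LT-HSC and 4 GMP libraries, with SE as bars, grouped by role, with filled points for an adjusted p under 0.05. There are 23 filled points to the right of 0 and 3 to the left (Rnf43, Daam1 and Tle3); the point for Rnf43 is a fitted value that depends on a prior count because LT-HSCs hold 3 counts, and Tle3 turns to the right under total-count scaling.

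WNT ligands themselves were scarce. Wnt10a had 0 counts in all 11 libraries, which allows up to 0.0386 CPM over the libraries together. Wnt10b had 23 counts over the EMCN+ libraries, 1 over the EMCN- libraries and 0 over the GMP libraries, and EMCN+ LT-HSCs were at least 4.42-fold higher than GMPs (floor of 3 counts over the group). In a fit without the filter, Wnt10b did not pass either comparison (adjusted p = 0.61 for EMCN+ against EMCN- and 0.11 for LT-HSCs against GMPs). Porcn, the acyltransferase that attaches the lipid to WNT proteins, had 45 counts in LT-HSCs and 2 in GMPs, a ratio of 9.01 (95% interval from 2.35 to 76.7, counting error only; adjusted p = 0.028 in a fit without the filter). Wls, the carrier that brings WNT proteins to the cell surface, was at 70.0 ± 4.07 (SD, n = 7) CPM in LT-HSCs and 79.0 ± 7.58 (SD, n = 4) in GMPs, and the difference did not pass the test (adjusted p = 0.096).

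Dishevelled proteins carry the signal from the receptor complex to the destruction complex. Dvl2 lay at 17.6 to 23.3 CPM in LT-HSCs and 12.9 to 14.6 CPM in GMPs (0.56 ± 0.14, SE; adjusted p = 0.002). Dvl3 lay at 19.7 to 31.8 CPM and 15.5 to 20.2 CPM, with overlapping groups (0.51 ± 0.15, SE; adjusted p = 0.0064). Dvl1 did not pass the test at 0.44 ± 0.19 (SE; adjusted p = 0.056), and it overlapped between the groups. Per kb, the 3 genes kept similar shares: Dvl3 made up 46.1% in EMCN+ LT-HSCs, 44.3% in EMCN- LT-HSCs and 45.2% in GMPs. Dvl2 shares 18.3% of its exonic bases with Acadvl on the other strand.

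In the destruction complex, which phosphorylates beta-catenin, Apc and Gsk3b were higher in LT-HSCs and the other tested members did not pass. Apc and Gsk3b were 2 of 6 tested genes of the complex and tankyrase, near the 32.5% of all tested genes called higher. Apc, the scaffold mutated in colorectal tumours, was at 99.4 ± 17.4 (SD, n = 7) CPM in LT-HSCs and 62.2 ± 3.54 (SD, n = 4) in GMPs (0.68 ± 0.12, SE; adjusted p = 5.7e-05). Gsk3b was at 67.6 to 95.4 CPM in LT-HSCs and 48.7 to 62.0 CPM in GMPs, without overlap (0.56 ± 0.11, SE; adjusted p = 0.00015). Gsk3a, its near relative, was at 23.1 ± 3.60 (SD, n = 7) and 22.9 ± 5.39 (SD, n = 4) CPM (adjusted p = 0.98), and 28.3% of its exonic bases overlap 9130221H12Rik on the other strand. Axin1, the scaffold present in limiting amounts, was at 58.4 ± 4.76 (SD, n = 7) and 51.0 ± 6.35 (SD, n = 4) CPM (adjusted p = 0.11), and Csnk1a1, the priming kinase, at 234 ± 8.96 (SD, n = 7) and 215 ± 7.91 (SD, n = 4) CPM (adjusted p = 0.19). Tnks, the tankyrase that turns over Axin, was at 72.3 ± 8.32 (SD, n = 7) and 82.1 ± 16.3 (SD, n = 4) CPM (adjusted p = 0.19). Axin2, a feedback inhibitor and much-used WNT target, stayed below the filter with 32, 21 and 24 counts over the EMCN+, EMCN- and GMP libraries.

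Ctnnb1, which encodes beta-catenin, was at 211, 221, 193 and 193 CPM in EMCN+ libraries, 229, 197 and 176 CPM in EMCN- libraries and 166, 132, 132 and 137 CPM in GMP libraries. The lowest LT-HSC library stood above the highest GMP library, and the difference was 0.52 ± 0.10 (SE; adjusted p = 9.1e-05). Ctnnbip1, which encodes an inhibitor that blocks beta-catenin from binding TCF factors, was at 5.46 to 11.9 CPM in LT-HSCs and 1.80 to 5.69 CPM in GMPs (1.39 ± 0.30, SE; adjusted p = 0.00042), with a small overlap. Ctnnb1 shares 14.6% of its exonic bases with Ulk4 and Ctnnbip1 25.8% with Gm13066, both on the other strand.

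The TCF/LEF factors bind DNA and recruit beta-catenin. Tcf7l2 was at 32.6, 30.8, 38.2 and 36.9 CPM in EMCN+ libraries, 24.0, 17.4 and 24.4 CPM in EMCN- libraries and 1.74, 2.61, 3.19 and 2.99 CPM in GMP libraries (LT-HSC against GMP 3.45 ± 0.20, SE; adjusted p = 3.1e-12). The 3 groups did not overlap and followed the order EMCN+, EMCN-, GMP. Tcf7l1, often a repressor of WNT targets, was at 7.15, 6.97, 5.90 and 6.65 CPM, 3.06, 5.17 and 3.52 CPM and 0.473, 0.653, 0.683 and 0.746 CPM in the same groups (3.03 ± 0.37, SE; adjusted p = 4.3e-07). Tcf7 and Lef1, the factors best known from lymphocytes, were below the filter. Tcf7 had 11, 7 and 25 counts over EMCN+, EMCN- and GMP libraries (adjusted p = 0.069 for LT-HSCs against GMPs in a fit without the filter), and Lef1 had 31, 12 and 15. Per kb, the factors summed to 11.8 ± 0.661 (SD, n = 4), 7.55 ± 0.630 (SD, n = 3) and 1.59 ± 0.388 (SD, n = 4) CPM in EMCN+ LT-HSCs, EMCN- LT-HSCs and GMPs. Tcf7l2 made up 78.8%, 77.8% and 44.7% of these sums and Tcf7 0.774%, 2.03% and 28.7%.

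TLE proteins are corepressors that occupy TCF factors in the absence of beta-catenin. Tle2 was at 14.7, 18.1, 19.3 and 16.0 CPM in EMCN+ libraries, 12.1, 12.6 and 12.2 CPM in EMCN- libraries and 0.473, 0.979, 1.37 and 0.56 CPM in GMP libraries (4.15 ± 0.28, SE; adjusted p = 3.5e-11). It was the TLE gene with the largest difference, and its share of the TLE level per kb was 20.3 ± 1.86% (SD, n = 4) in EMCN+ LT-HSCs, 15.7 ± 0.272% (SD, n = 3) in EMCN- LT-HSCs and 1.26 ± 0.553% (SD, n = 4) in GMPs. Tle3 was lower in LT-HSCs, at 38.3 to 59.2 CPM against 59.9 to 78.5 CPM (-0.47 ± 0.10, SE; adjusted p = 0.00048), and under total-count scaling it turned to 0.31 (adjusted p = 0.022), which is -0.50 relative to the shifted median of all genes. Tle4 differed by 0.48 ± 0.12 (SE; adjusted p = 0.0015) at 36.9 to 61.3 CPM in LT-HSCs and 33.5 to 41.2 CPM in GMPs. Tle1 overlapped between the groups, at 13.1 ± 2.15 (SD, n = 7) CPM in LT-HSCs and 9.55 ± 1.19 (SD, n = 4) CPM in GMPs, and differed by 0.44 ± 0.18 (SE; adjusted p = 0.041). The call of Tle1 did not hold with mouse as a block (adjusted p = 0.061), nor without any 1 of 8 libraries (EMCN+ 2, 3 and 4, EMCN- 2 and 4, and GMP 2, 3 and 4), and its adjusted p ranged from 3.3e-06 to 0.18 over 21 alternatives. The TLE sum per kb was 30.5 ± 3.19 (SD, n = 4), 28.5 ± 0.989 (SD, n = 3) and 24.2 ± 2.02 (SD, n = 4).

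In the planar cell polarity branch, 3 of 4 tested genes were higher in LT-HSCs and 1 lower, beside 32.5% and 29.9% of all tested genes. Daam1, which encodes a formin that links dishevelled to the actin cytoskeleton, was at 17.7, 19.9, 20.4 and 12.7 CPM in EMCN+ libraries, 27.7, 23.7 and 16.2 CPM in EMCN- libraries and 115, 127, 128 and 110 CPM in GMP libraries. The difference was -2.59 ± 0.13 (SE; adjusted p = 4.5e-13), without overlap between LT-HSCs and GMPs. Vangl1, a core polarity protein gene, was at 5.81 to 9.93 CPM in LT-HSCs and 0.816 to 1.14 CPM in GMPs (3.08 ± 0.29, SE; adjusted p = 9.4e-09). Its relative Vangl2 was at 12.3 to 18.6 CPM and 3.43 to 6.15 CPM (1.52 ± 0.21, SE; adjusted p = 2.6e-06). Prickle1, which encodes a binding partner of VANGL proteins, was at 5.97 to 11.4 CPM and 2.12 to 5.52 CPM (1.19 ± 0.26, SE; adjusted p = 0.00047). No LT-HSC library overlapped a GMP library for these 3 genes. The share of all tested genes without overlap between LT-HSCs and GMPs was not counted. Absence of overlap, here and for the genes above, is therefore a description without a background.

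EMCN+ and EMCN- LT-HSCs were compared to ask whether the pathway differs within the stem cell gate. No member was called higher or lower at an adjusted p under 0.05 in edgeR, beside 0.771% of all genes called higher and 1.19% called lower. Of these calls 39.2% were higher, and 76.3% with total-count scaling. At an unadjusted p under 0.05 the members were 4 of 33 (12.1%: Tcf7l2, Ryk, Tcf7l1 and Znrf3), beside 13.9% of all genes. DESeq2 and limma-voom each called 1 member, Tcf7l2. A positive difference was seen for 25 of 33 members, among them Rnf43 on 3 LT-HSC counts. The median was 0.06, and 0.00 over all genes.

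Tcf7l2 had the smallest p, with a difference of 0.66 ± 0.18 (SE; unadjusted p = 0.0013, adjusted p = 0.061), and EMCN+ exceeded EMCN- in 3 of 3 mice. It passed with an adjusted p of 0.014 when the 6 libraries of the 3 complete pairs were fitted alone with mouse as a block, and it did not pass with the block in all 11 libraries. Over 21 alternatives it passed in 8, with adjusted p from 0.014 to 0.25, among them the fit without GMP library 1 (adjusted p = 0.040). Ryk differed by 0.56 ± 0.19 (SE; unadjusted p = 0.0074, adjusted p = 0.15), Tcf7l1 by 0.76 ± 0.35 (SE; adjusted p = 0.33) and Znrf3 by 0.45 ± 0.21 (SE; adjusted p = 0.33). These 3 genes were also higher in EMCN+ in 3 of 3 mice. Tle2 (0.47 ± 0.23, SE; adjusted p = 0.37) and Prickle1 (0.57 ± 0.29, SE; adjusted p = 0.40) showed the same direction in 3 of 3 mice.

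Every EMCN+ library stood above every EMCN- library for 7 members (21.2%: Fzd4, Prickle1, Ryk, Tcf7l1, Tcf7l2, Tle2 and Znrf3), beside 7.25% of all genes, and the reverse held for 0 members, beside 6.99%. The absence of overlap fixes the direction within each mouse for these 7 members, so their 3 of 3 mice is no separate result. Znrf3 was at 19.8, 22.1, 20.9 and 17.4 CPM in EMCN+ libraries and 14.5, 14.5 and 15.3 CPM in EMCN- libraries. Fzd4 ran from 8.21 to 9.58 CPM in EMCN+ and 5.35 to 7.91 CPM in EMCN- libraries, and Prickle1 from 8.58 to 11.4 CPM and 5.97 to 7.75 CPM. Daam1 differed by -0.35 ± 0.17 (SE; adjusted p = 0.37) and was lower in EMCN+ in 3 of 3 mice, and Tle3 differed by 0.24 ± 0.13 (SE; adjusted p = 0.43) with 2 of 3 mice higher. The other 24 tested members, Rnf43 with its 3 LT-HSC counts left aside, had differences between -0.50 (Ctnnbip1) and 0.51 (Fzd4). The summed megakaryocyte and T cell markers (higher in EMCN-) and the summed erythroid, endothelial and LT-HSC markers (higher in EMCN+), given above, also differed between these fractions without overlap, and their part was not tested.

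**Figure D4:**
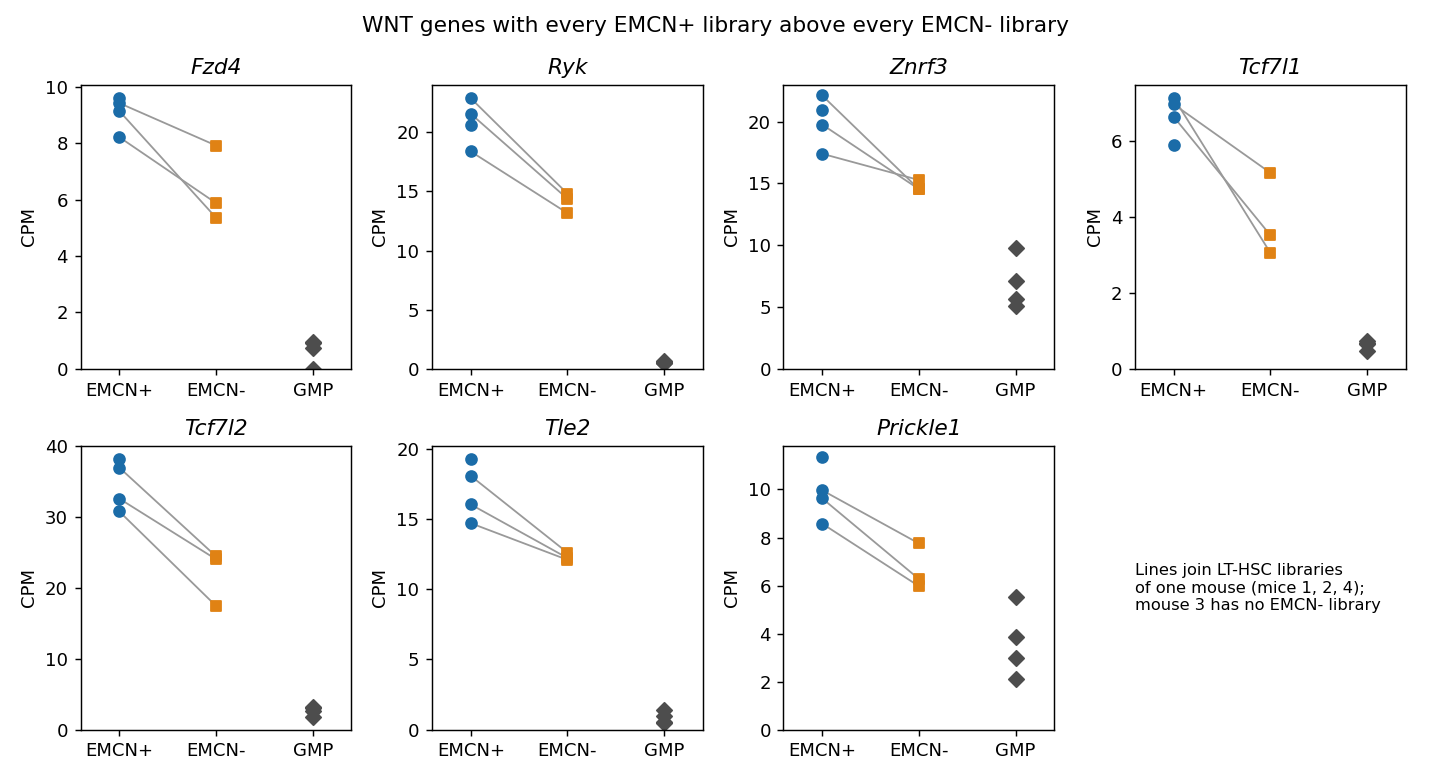
CPM of the 7 WNT genes for which every EMCN+ library stood above every EMCN- library, with a point per library on a linear axis from 0 and lines joining the LT-HSC libraries of 1 mouse. Tcf7l2 runs from 30.8 to 38.2 CPM in EMCN+, 17.4 to 24.4 CPM in EMCN- and 1.74 to 3.19 CPM in GMPs. All joined pairs slope down from EMCN+ to EMCN-, which the choice of these genes fixed in advance.

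**Figure D5:**
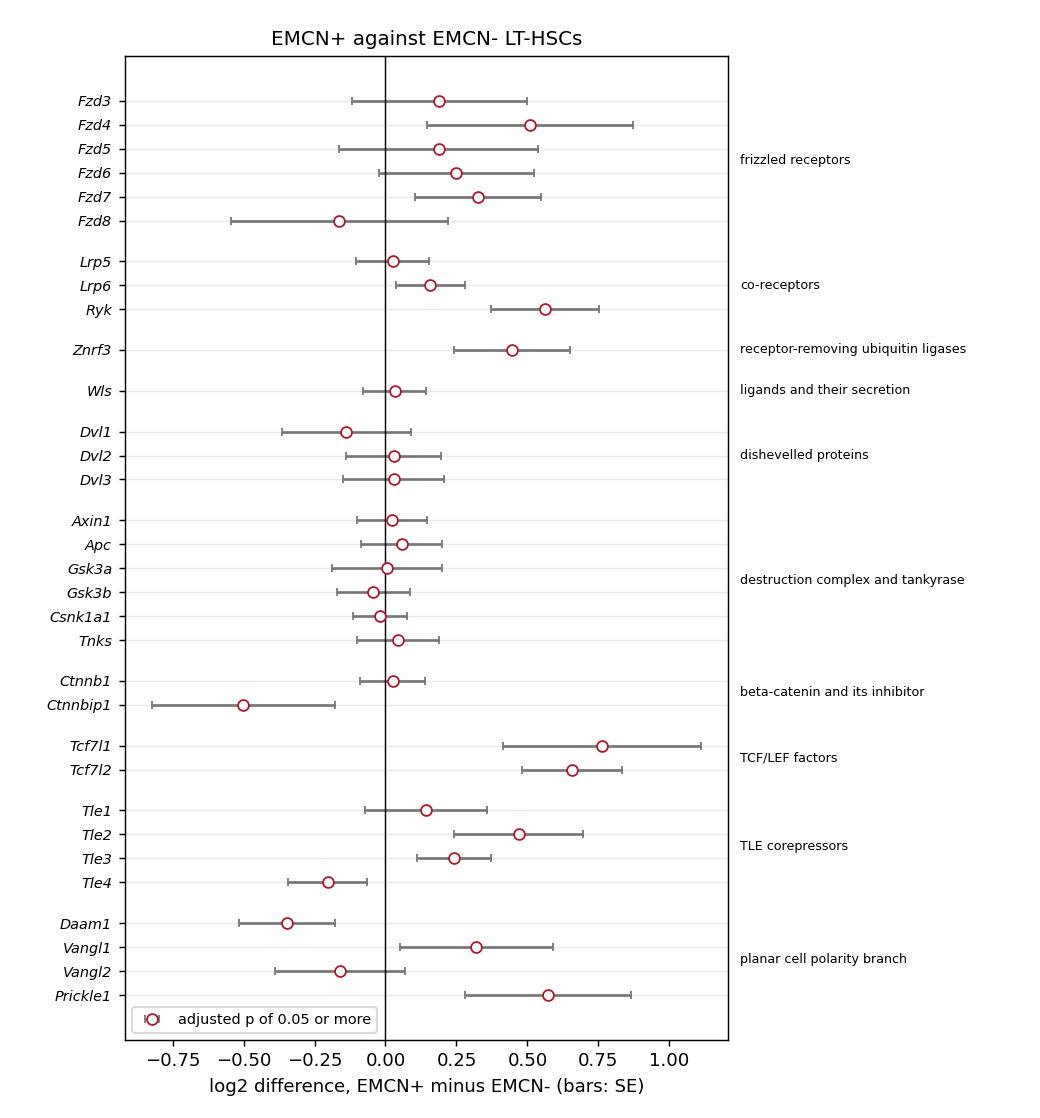
Log2 difference between EMCN+ (n = 4) and EMCN- (n = 3) LT-HSCs for 32 tested WNT genes, with SE as bars, grouped by role; Rnf43 is not drawn because it has 3 counts in LT-HSCs. All points are open because no member reached an adjusted p under 0.05, and Tcf7l1 (0.76) and Tcf7l2 (0.66) are the farthest to the right.

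A wider list of 109 other pathway genes, of which 108 were in the table and 62 were tested, was examined in the same fit. In EMCN+ against EMCN- LT-HSCs, 0 of 62 were called in either direction, beside 0.771% of all genes called higher and 1.19% lower. Against GMPs, 44 of 62 were higher in LT-HSCs and 6 were lower, beside 32.5% and 29.9% of all genes, with a median difference of 0.65, and 0.03 over all genes. Ror2, Sfrp1 and Apc2 held 93, 424 and 316 counts in LT-HSCs and 0, 1 and 3 in GMPs. On the lower side, Celsr3 held 3 and 2 counts in EMCN+ and EMCN- LT-HSCs. Such genes passed the filter through 1 cell type, so a large difference was favoured for them. The number of such genes in this list was not counted. Among the 17 other WNT ligands only Wnt4 was tested, and it did not pass. Sfrp1, a secreted WNT inhibitor, was at 8.84 ± 1.46 (SD, n = 4) CPM in EMCN+ and 5.14 ± 0.724 (SD, n = 3) CPM in EMCN- LT-HSCs, and its 424 counts in LT-HSCs against 1 in GMPs give a ratio of 169.8 (95% interval from 30.3 to 6720, counting error only).

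Among the receptors outside the member list, Ptk7 (2.59 ± 0.24, SE), a polarity co-receptor, Kremen1 (1.83 ± 0.19, SE), a DKK receptor, and Lgr4 (2.75 ± 0.34, SE), an R-spondin receptor, were higher in LT-HSCs. Of the cytoplasmic regulators, 11 of 16 tested were higher and 1 lower, with Csnk1d (0.98 ± 0.10, SE), a casein kinase, and Cxxc5 (2.28 ± 0.19, SE), a dishevelled-binding protein gene, among the higher. Of the nuclear cofactors, 11 of 15 tested were higher and 1 lower (the shares over all genes are those just given). Bcl9l (2.74 ± 0.15, SE), a beta-catenin cofactor, and Crebbp (1.23 ± 0.10, SE), a histone acetyltransferase, were higher, and Cby1 (-1.60 ± 0.19, SE), a beta-catenin antagonist, was lower. Of the polarity and calcium genes, 15 of 22 were higher and 4 lower, with Nfatc2 (4.89 ± 0.22, SE), a calcium-responsive transcription factor, and Camk2d (2.61 ± 0.15, SE), a calmodulin kinase, the 2 with the smallest p. Celsr3, a polarity cadherin, had 146 counts in GMPs against 3 in EMCN+ and 2 in EMCN- LT-HSCs, ratios of 84.4 (95% interval from 28.3 to 414) and 55.8 (15.2 to 465). Rhoa, Cdc42 and Ppp2r5a, which were lower, turned to higher under total-count scaling, and Scrib no longer passed (adjusted p = 0.61). Celsr3, Cby1 and these 4 are the 6 lower genes of the wider list and were named after their values were seen.

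Of 23 genes known as direct WNT targets, 5 of which are members, 9 were tested, 3 were higher in LT-HSCs and 5 were lower, with a median difference of -0.42. Over all genes 32.5% were higher and 29.9% lower. The 3 of 9 higher targets were near that background and the 5 of 9 lower ones were above it, on only 9 genes. Znrf3, Ccnd1 (2.32 ± 0.37, SE), a cell cycle cyclin, and Jag1 (2.04 ± 0.67, SE), a NOTCH ligand, were higher. Rnf43, Bambi (-2.05 ± 0.23, SE), Cd44 (-0.52 ± 0.09, SE), Id2 (-2.01 ± 0.35, SE) and Myc (-0.42 ± 0.13, SE) were lower, and Cd44 and Myc turned to higher under total-count scaling. Ccnd1, Jag1, Id2 and Myc were named after their values were seen. None of the 9 was called between EMCN+ and EMCN- LT-HSCs.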

How the data were processed

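RNA of bone marrow cells from 4 mice was sequenced as 11 libraries with a SMARTer stranded total RNA pico kit on a NextSeq 500, per the labels' protocols. The labels give the molecule as polyA RNA, whereas the kit takes total RNA, so which RNA the values cover was not settled. The table deposited by the authors holds estimated counts, which they made from their reads and gave for each gene. The submitters' processing notes name Salmon and cutadapt; versions, genome build and annotation are not given in the sources used here. The members and all lists were chosen with earlier results of these data known.

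The estimated counts are whole numbers and were rounded as a safeguard, genes were filtered with filterByExpr by group at a minimum count of 10 (14915 genes), and all 11 libraries were fitted together in edgeR 4.0.16 (R 4.3.3) by robust quasi-likelihood, using TMM factors and no mouse block. LT-HSC libraries were weighted equally against GMPs. P-values were adjusted by Benjamini-Hochberg over all tested genes with a threshold of 0.05. Alternatives were RLE, upper-quartile and total-count scaling, no filter, 5 CPM in 3 libraries, DESeq2 1.42.0, limma-voom (limma 3.58.1), mouse as a block, subsets of groups and leaving out each library. Transcript length and overlaps came from GENCODE M21 (GRCm38), where 54094 of 54347 identifiers matched without version. The script was tested on simulated data. CPM uses TMM-scaled library sizes.

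Named genes were all 41 members, with values for those called or at a mean of 20 CPM or more, and up to 4 called genes per other list with the smallest p. The lower genes of the wider list and the target genes named beyond this rule were chosen after their values were seen.

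The mouse number pairs libraries of the same animal. Deviations from group means correlated at a mean r of 0.198 over the 3 same-mouse LT-HSC pairs (0.165 to 0.223) and -0.0657 over 9 pairs of different mice. Between LT-HSC and GMP libraries the mean r was 0.0713 over 7 same-mouse pairs and -0.0237 over 21 pairs of different mice. Subtracting group means ties the same-mouse and different-mouse means together, so the negative means are no separate result. P-values measure the spread between libraries, and all 11 libraries came from 4 mice. Of these libraries, 6 are the 3 LT-HSC pairs of single animals. Each GMP library shares its mouse with an LT-HSC library, and the 7 LT-HSC libraries behind n = 7 came from the 4 mice. The main fit had no mouse block and treated the libraries as independent. Intervals and floors cover counting error only.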

Additional observations from a re-analysis of the deposited data

Results flagged for a closer look

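Of 72 gene and group combinations with 4 libraries, 2 held a library far from the other 3, both in GMPs, where chance flags about 1 in 20 groups. Rnf43 was at 6.37 CPM in GMP library 3, and between 7.28 and 7.41 CPM in the other GMP libraries. Ctnnb1 was at 166 CPM in GMP library 1, and between 132 and 137 CPM in the others. All 4 GMP libraries stayed above all LT-HSC libraries for Rnf43 and below them for Ctnnb1.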

How the results depend on the processing

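Over 21 alternatives, the LT-HSC against GMP comparison called 22 to 31 members higher and 2 to 4 lower. Total-count scaling moved all genes from 4852 higher and 4463 lower to 9063 and 1907, which raised the share of higher calls from 52.1% to 82.6%, and it reversed Tle3 (0.31), Tnks (0.59) and Wls (0.61). Gsk3a, at 0.01 and not called, was reversed with mouse as a replicate block (-0.0077) and ranged from -0.14 to 0.10 when single libraries were left out. The call of Tle1 was lost in 12 alternatives. Calls were gained with total-count scaling by Axin1, Csnk1a1, Dvl1, Gsk3a and Lrp5, with upper-quartile factors by Axin1, Csnk1a1, Dvl1 and Lrp5, with RLE factors by Dvl1, with DESeq2 by Csnk1a1, and by Dvl1 without EMCN+ library 2 or 4, EMCN- library 4 or GMP library 2, by Axin1 without GMP library 1 and by Wls without GMP library 3. The median over all genes moved by 0.122 with upper-quartile factors for LT-HSCs against GMPs, and by 0.11 with total-count scaling for EMCN+ against EMCN-. For EMCN+ against EMCN-, the members called higher went from 0 to 1 (Tcf7l2) with total-count scaling, no filter, the 5 CPM filter, DESeq2, limma-voom, the 7 LT-HSC libraries alone and the 6 paired libraries with the replicate block, and were 0 to 1 when single libraries were left out. All genes called higher (115) became 236 without a filter, 203 in DESeq2, 179 in limma-voom and 380 in the paired libraries with the block, and 26 (without EMCN- library 1) to 123 (without GMP library 1) when single libraries were left out, with 47, 69 and 72 without EMCN+ library 2, EMCN- library 2 and EMCN- library 4. All genes called lower (178) became 50 with total-count scaling, 293 without a filter, 118 in the LT-HSC libraries alone and 528 in the paired libraries with the block, and 29 (without EMCN- library 1) to 221 (without EMCN+ library 1) when single libraries were left out, with 58 and 99 without EMCN+ library 2 and 4. The share of higher calls in this comparison was 39.2%, and 76.3% with total-count scaling. The replicate block in all 11 libraries changed no member call other than that of Tle1. The causes were not tested. Depth limits the ligands, Axin2, Tcf7 and Lef1, which had at most 32 counts in any group.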

Other observations

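Genes near Rnf43 on chromosome 11 were chosen after its values were seen. Mtmr4 was at 31.3 ± 3.80 (SD, n = 4) CPM in EMCN+ LT-HSCs and 30.5 ± 4.40 (SD, n = 4) CPM in GMPs and did not pass the test (adjusted p = 0.94). Supt4a, at -1.74 ± 0.12 (SE), and Tspoap1, at -4.51 ± 0.17 (SE), were lower in LT-HSCs on the log2 scale in edgeR's quasi-likelihood test (adjusted p = 3.7e-11 and 5.7e-15). Mpo, the myeloperoxidase gene that marks GMPs and lies in the same region, was at 11439 ± 1388 (SD, n = 4) CPM in GMPs and 0.980 ± 0.852 (SD, n = 4) CPM in EMCN+ LT-HSCs.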
